A study of Mus musculus with 65 samples.

Results

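The solute carriers are the largest group of membrane transporters, and 63 of their genes could be followed in the spinal cord of C57BL/6 mice of different age, diet and sex. The members were every feature of the array whose platform annotation gave 1 symbol beginning with Slc and a family number, with Slc1a3, Slc17a6 and Slc4a1 left out because they serve as markers of astrocytes, neurons and red blood cells. They comprised 68 of the 4875 features with 1 symbol and 63 of the 4209 genes these represent, on a filter of 8448 features. A further feature annotated with both Slc18a2 and Pdzd8 was not counted. Total RNA of 1 spinal cord was measured on 1 nylon filter carrying mouse cDNA clones, for each of 65 mice. Mice on caloric restriction (CR) numbered 8 at 6 months, 10 at 16 months and 7 at 24 months, and mice fed ad libitum (AL) numbered 10 juveniles of 17 to 44 days and 10 each at 6, 16 and 24 months. In days, the CR groups spanned 174 to 194, 472 to 499 and 673 to 743, and the AL groups 169 to 194, 476 to 499 and 704 to 743. All 3 CR males of 24 months were 673 days old, younger than any AL mouse of 24 months. Diet is thus mixed with an age difference in these males, and its part was not tested. There were 31 males and 34 females. CR mice received full feed to 13 weeks of age and fortified feed stepped down to 90%, 75% and finally 60% of it, while AL mice received regular feed throughout. All mice were of 1 strain and none carried a genetic change in the labels. Each value is a Z score, in which 0 stands for the average feature of the same array and 1 for the SD of its features. Differences are given in these Z units, and levels of different genes are not compared, because each cDNA clone has its own signal.

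Solute carriers move nutrients, ions, metals and transmitters across membranes by coupling them to gradients of sodium, protons or other solutes, or by exchange. In the spinal cord they clear transmitters from the synapse, feed neurons and glia, set the chloride and calcium gradients that shape excitability, and carry substrates into mitochondria. The families differ in their substrates, and 8 classes were formed from the family number. They were metals (12 members), amino acids (9), organic ions and metabolites (9), ions (8), mitochondrial carriers (8), sugars and small solutes (6), transmitters and choline (6), and nucleosides and nucleotide sugars (5).

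Zinc carriers are the best represented group among the members, and cells set some of them by the metal-sensing factor MTF1 acting through metal response elements. The core of this element, TGCACNC or TGCGCNC on either strand, was searched in the RefSeq promoter windows of build GRCm38.p6, each of 300 bases around a gene start. It was found in 7 of 13 windows of metal carriers (53.8%, 10 genes with a window), in 25 of 72 windows of all members (34.7%, 46 genes) and in 8444 of 32851 windows of all genes (25.7%). The other motifs searched were the E-box core CACGTG, found in 30.8% of the windows of metal carriers, 12.5% of those of members and 7.15% of all windows, and the TATA box core TATAAA, found in 15.4%, 2.78% and 13.6%. Members' windows also held more G and C, with a median of 61% against 52.7% in all windows, and the part of base composition in these shares was not tested. A match is a stretch of letters and not a measured site. The windows below belong to the 2 zinc carriers that lead the diet comparison at 6 months and to the zinc carrier with the most matches, with each core in capitals. They lie at chr3:135825407-135825706 (plus strand), chr11:113565766-113566065 (minus strand) and chr2:122702614-122702913 (minus strand).
Slc39a8: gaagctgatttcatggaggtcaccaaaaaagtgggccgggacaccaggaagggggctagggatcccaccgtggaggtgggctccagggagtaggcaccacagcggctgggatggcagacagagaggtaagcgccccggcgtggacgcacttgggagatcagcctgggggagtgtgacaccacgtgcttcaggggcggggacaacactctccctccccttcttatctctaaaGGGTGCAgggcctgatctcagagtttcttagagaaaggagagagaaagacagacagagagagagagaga
Slc39a11: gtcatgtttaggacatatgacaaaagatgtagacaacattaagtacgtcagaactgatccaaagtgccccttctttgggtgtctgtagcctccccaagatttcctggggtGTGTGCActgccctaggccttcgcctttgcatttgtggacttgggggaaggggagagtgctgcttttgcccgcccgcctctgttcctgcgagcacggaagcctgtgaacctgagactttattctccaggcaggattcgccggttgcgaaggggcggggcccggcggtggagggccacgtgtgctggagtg
Slc30a4: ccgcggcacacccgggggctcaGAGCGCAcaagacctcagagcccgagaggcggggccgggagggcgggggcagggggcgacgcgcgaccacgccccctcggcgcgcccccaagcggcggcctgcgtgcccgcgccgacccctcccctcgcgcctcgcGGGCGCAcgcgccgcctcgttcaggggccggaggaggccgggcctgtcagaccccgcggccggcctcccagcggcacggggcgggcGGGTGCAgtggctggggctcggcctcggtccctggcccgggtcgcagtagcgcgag
Slc39a8 and Slc39a11 have 1 core each in these windows and Slc30a4 has 3. The other listed start of Slc39a8 has 0.

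The arrays fell into sets that the labels do not name, which touches every comparison. Arrays 31 and 32 (CR, male and female) and array 33 (AL, male), each of a mouse of 6 months, stood apart. Among the other arrays, 36% of the variance lay on the first principal component, whose widest gap parted 41 arrays, called the first run here, and 21 called the second run. The second run held 3 of 7 CR and 6 of 10 AL mice at 24 months, 3 of 10 CR and 4 of 10 AL mice at 16 months, 0 of 8 CR and 1 of 10 AL mice at 6 months, and 4 of 10 juveniles. In a fit with the run as a term, 26 members (41.3%) differed between the runs, against 47.8% of all genes. This is a description, since the runs were found from these same arrays. The lowest or highest of the 65 values belonged to array 31, 32 or 33 in 49 of the 63 members, and in 78.4% of all genes. For this reason named differences are followed by values without these arrays, with the run in the fit, or within a run. The array of AL male replicate 2 of 24 months carries a description that names another mouse than its title, and it was kept in the group given by the title. Among defining markers, the neurofilament gene Nefl of neurons and the complement gene C1qa of microglia were measured. So were the hemoglobin gene Hba-a1 of blood and the collagen gene Col1a1 of meninges. No feature was annotated as the myelin gene Mbp, the astrocyte genes Gfap and Aqp4 or the endothelial genes Pecam1 and Cldn5.

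**Figure D1:**
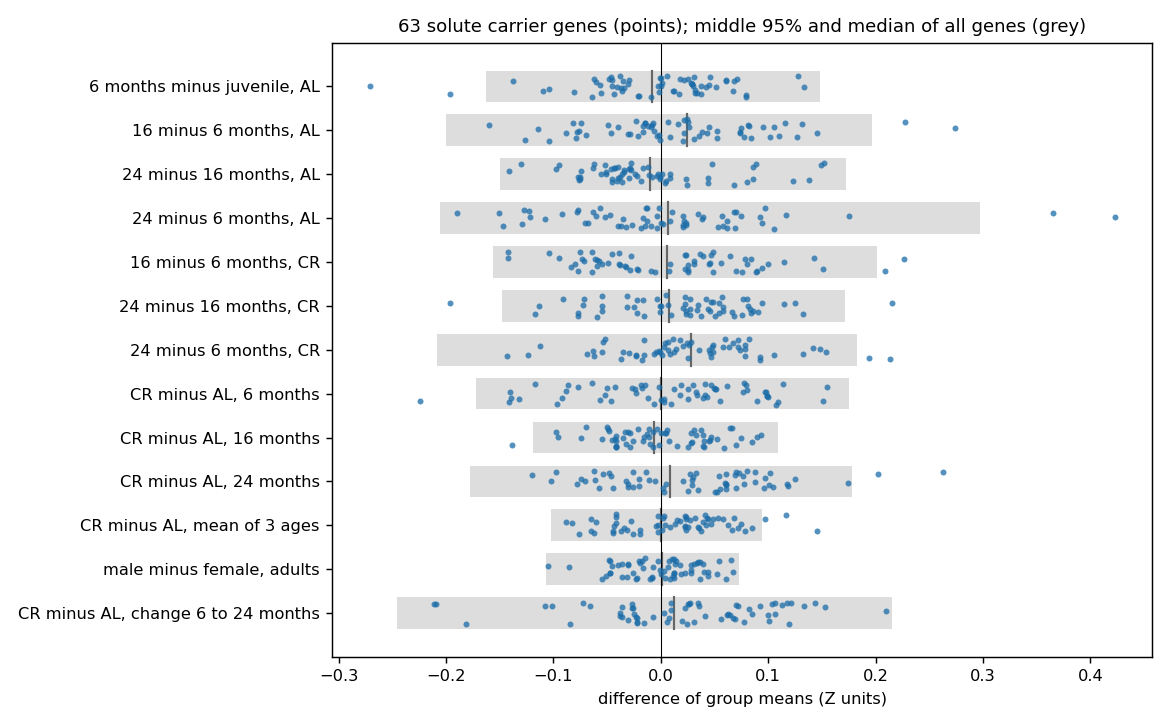
Difference of group means in Z units (x axis) of the 63 solute carrier genes (points) in each of 13 comparisons (y axis), with the middle 95% of all 4209 genes as a grey bar and their median as a grey line. The points lie mostly inside the grey bars, and the 2 points farthest to the right at 24 minus 6 months in AL mice are Slc22a17 (0.423) and Slc25a3 (0.365).

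Not a single solute carrier passed the test across all genes in any of the 13 comparisons (limma, Benjamini-Hochberg adjusted p under 0.05), and in no comparison of ages or diets were the 2 groups of a member free of overlap. Over all genes, groups without overlap made up 0.0713% for 16 against 6 months and for 24 against 6 months in AL mice, 0.143% for 24 against 6 months in CR mice and 0% in the other 7 comparisons of that kind. In whole tissue, fewer cells of a type and less RNA per cell cannot be told apart. Growth from the juvenile stage to 6 months in AL mice gave 0 of 63 members called against 0% of all genes, and 3 members with an unadjusted p under 0.05 (4.76%) against 2.49%. Between 16 and 6 months in AL mice, 0 members were called against 0.0475% of genes, and 5 had an unadjusted p under 0.05 (7.94%) against 11.9%. Between 24 and 16 months in AL mice, 0 were called against 0% and 0 had such a p against 1.97%. Across the whole adult span of 24 against 6 months in AL mice, 0 were called against 0.119% and 6 had such a p (9.52%) against 12.6%. CR mice of 16 against 6 months gave 0 called against 0% and 5 with such a p (7.94%) against 7.79%. Those of 24 against 16 months gave 0 called against 0% and 1 with such a p (1.59%) against 4.47%, and those of 24 against 6 months 0 called against 0.0475% and 2 with such a p (3.17%) against 5.63%. At such shares of all genes, a count of 0 called among 63 is no result about the members. In each age comparison of adults except 1 the share with a low p was below that of all genes.

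Diet and sex gave the same picture. CR against AL at 6 months gave 0 members called against 0.0475% of genes, and 4 with an unadjusted p under 0.05 (6.35%) against 7.65%. At 16 months 0 were called against 0% and 0 had such a p against 0.713%, and at 24 months 0 were called against 0% and 2 had such a p (3.17%) against 6.99%. Over the 3 ages together 0 were called against 0.0238% and 5 had such a p (7.94%) against 10.2%. Adult males against females gave 0 called against 0% and 3 with such a p (4.76%) against 3.37%, each of the 3 lower in males. The difference between CR and AL in the change over 6 to 24 months gave 0 called against 0% and 1 with such a p (1.59%) against 1.78%. When the run was added as a covariate and arrays 31 to 33 were left out (the run-adjusted fit), 0 members were called in each comparison. The share of all genes called in that fit was 0.119% for 16 against 6 months in AL mice, for 24 against 6 months in AL mice and for 24 against 6 months in CR mice. It was 0.0238% for CR against AL at 6 months and over the 3 ages, and 0% in the other 8 comparisons. The middle of the members also stayed close to 0. Their median difference was -0.028 Z at 24 against 16 months in AL mice (44 of 63 negative), against -0.01 Z for all genes. It was 0.0299 Z for CR against AL at 24 months (40 of 63 positive), against 0.00883 Z for all genes. Positive differences made up 30.2% of members and 42.7% of all genes in the former comparison, and 63.5% and 54.7% in the latter. The residual SD between mice of the same group had a median of 0.131 Z for members and 0.14 Z for all genes.

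Metal carriers held the largest diet difference at 6 months. Slc39a8, the ZIP8 importer of zinc, manganese and iron, had Z scores of 0.06 (lowest), 0.57 (median) and 0.66 (highest) in the 8 CR mice of 6 months, against 0.57, 0.665 and 0.77 in the 10 AL mice. Each of the 8 CR mice lay below the AL median, and 4 of them lay below the lowest AL mouse. The difference was -0.224 (SE 0.062, unadjusted p = 0.000663, adjusted p = 0.465 in limma). The lowest CR mouse, at 0.06, and another at 0.39 were arrays that stood apart, and without arrays 31 to 33 the difference was -0.113. The run-adjusted difference was -0.12 (unadjusted p = 0.0519), and within the first run -0.126 between 6 CR and 8 AL mice. At the later ages the groups overlapped widely. Slc39a8 spanned 0.61 to 0.73 in CR and 0.42 to 0.83 in AL mice of 16 months, and 0.35 to 0.73 in CR and 0.35 to 0.87 in AL mice of 24 months. The change over 6 to 24 months differed between the diets by 0.21 (SE 0.0889, adjusted p = 0.997), or by 0.0935 in the run-adjusted fit. In CR mice the difference of 16 against 6 months was 0.209 (SE 0.062, adjusted p = 0.469), with 10 of 10 mice of 16 months above the median of those of 6 months, and it was 0.109 without arrays 31 to 33. Over the 3 ages CR mice differed from AL mice by -0.083 (SE 0.0353, adjusted p = 0.442), by -0.0461 without arrays 31 to 33 and by -0.0549 in the run-adjusted fit (unadjusted p = 0.0919).

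Slc39a11, a ZIP protein of intracellular membranes, had a difference of the opposite sign. It ran -1.21, -1.13 and -0.97 (lowest, median and highest) in CR mice of 6 months, against -1.39, -1.28 and -1.12 in AL mice, with 8 of 8 CR mice above the AL median and 2 above the highest AL mouse. Those 2, at -0.97 and -1.02, were arrays 31 and 32, and the lowest AL mouse was array 33. The difference was 0.155 (SE 0.0538, adjusted p = 0.59), 0.0978 without arrays 31 to 33 and 0.101 in the run-adjusted fit (unadjusted p = 0.0946). In AL mice the mean of the same gene was -1.14 ± 0.078 (SD of 10 mice) at 16 months, against -1.27 ± 0.0783 at 6 months. This gave 0.127 (SE 0.0498, adjusted p = 0.377), which was 0.0967 within the first run and 0.153 within the second run. Only 1 mouse of 6 months was in that second run. Slc39a1, the plasma membrane importer ZIP1, differed most between 24 and 16 months in AL mice. It ran -1.03, -0.67 and -0.53 at 24 months, against -1.04, -0.865 and -0.71 at 16 months, and 6 of 10 mice of 24 months lay above the highest mouse of 16 months. The difference of 0.152 (SE 0.0854) had an adjusted p of 0.957 and was 0.124 in the run-adjusted fit.

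Ferroportin, the iron exporter encoded by Slc40a1, had Z scores of 0.22, 0.34 and 0.56 in CR mice of 16 months, against 0.29, 0.445 and 0.53 in AL mice. Of 10 CR mice, 9 lay below the AL median, and the difference was -0.098 (SE 0.069, adjusted p = 1). The run-adjusted value was -0.0916 (SE 0.0409, unadjusted p = 0.0294, adjusted p = 0.997). Over the 3 ages the CR difference was -0.0878 (SE 0.0424, adjusted p = 0.482), and adult males differed from adult females by -0.0853 (adjusted p = 0.949). Run-adjusted, these were -0.0573 and -0.0594. The remaining metal carriers were the zinc exporters Slc30a3 of synaptic vesicles, Slc30a4, Slc30a5, Slc30a6, Slc30a7 and Slc30a9, the zinc importer Slc39a4 and the magnesium carrier Slc41a3. Of these only Slc30a6, at -0.122 (SE 0.0564, adjusted p = 0.352) for 24 against 6 months in AL mice and -0.049 in the run-adjusted fit, had an unadjusted p under 0.05 in any comparison over the 65 arrays. In the run-adjusted fit Slc39a4 had one in 4 comparisons, the widest at 0.165 (adjusted p = 0.556) for the difference between diets in the change over 6 to 24 months. Slc30a7 differed by -0.147 (SE 0.102) in the same contrast and by -0.03 in the run-adjusted fit.

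The transmitter and choline carriers held the smallest p of all members. Slc6a8, the X-linked creatine transporter that supplies cells with the store of high-energy phosphate, had Z scores of -0.34, -0.23 and -0.16 (lowest, median and highest) in CR mice of 16 months, against -0.98, -0.33 and -0.21 in CR mice of 6 months. Of the 10 mice of 16 months, 9 lay above the median of those of 6 months. The difference was 0.226 (SE 0.0586, unadjusted p = 0.000308, adjusted p = 0.321 in limma). Both of the lowest CR mice of 6 months, at -0.98 and -0.57, were arrays that stood apart. Without arrays 31 to 33 the difference was 0.0965 (adjusted p = 1), and within the first run it was 0.0757 between 7 and 6 mice. A single mouse also set the call, since without CR male replicate 1 of 6 months the difference was 0.304 (adjusted p = 0.00633), and without CR male replicate 2, array 31, it was 0.126 (adjusted p = 1). Against the same mice of 6 months, CR mice of 24 months, at -0.36, -0.25 and -0.15, differed by 0.194 (SE 0.0641, unadjusted p = 0.00377, adjusted p = 0.654), by 0.0646 without arrays 31 to 33 and by 0.0656 in the run-adjusted fit. In AL mice the low values were also those of 6 months. Their median was -0.26 in juveniles, -0.305 at 6 months, -0.22 at 16 months and -0.215 at 24 months, and the lowest value was -0.32, -0.83, -0.31 and -0.35 at these stages. The AL difference of 16 against 6 months was 0.145 (SE 0.0543, adjusted p = 0.377), 0.0978 without arrays 31 to 33, 0.128 within the first run and -0.04 within the second run, where only 1 mouse was of 6 months. The mice of 6 months had both the lowest median and the widest range. Their lowest value, -0.83, was that of array 33, and the nearest mouse was at -0.49.

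Slc6a8 also had the smallest p between the sexes. It ran -0.98, -0.275 and -0.14 in 26 adult males, against -0.57, -0.22 and -0.15 in 29 adult females. The difference was -0.105 (SE 0.0333, unadjusted p = 0.0027, adjusted p = 0.949), -0.0658 in the run-adjusted fit (unadjusted p = 0.00413), -0.044 within the first run and -0.0647 within the second run. The sexes overlapped, and the lowest values, -0.98 and -0.83, were males on arrays 31 and 33. The other members of the class were the vesicular nucleotide transporter Slc17a9, the choline transporter-like genes Slc44a1 and Slc44a2, the GABA and taurine carrier Slc6a13 and the taurine transporter Slc6a6. Slc44a2 differed by 0.105 (SE 0.0471, adjusted p = 0.35) for 24 against 6 months in AL mice, and Slc6a13 by 0.0584 (SE 0.0281, adjusted p = 0.482) for CR against AL over the 3 ages. Run-adjusted, these were 0.0365 and 0.034. In the run-adjusted fit, 2 of the 6 members of the class had an unadjusted p under 0.05 for 24 against 6 months in CR mice. Both were higher at 24 months, beside 14.8% of all genes with such a p. For CR against AL at 24 months 1 member had such a p, lower in CR mice, beside 15.7% of all genes. The difference of Slc6a6 between the second and the first run was -0.328.

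**Figure D2:**
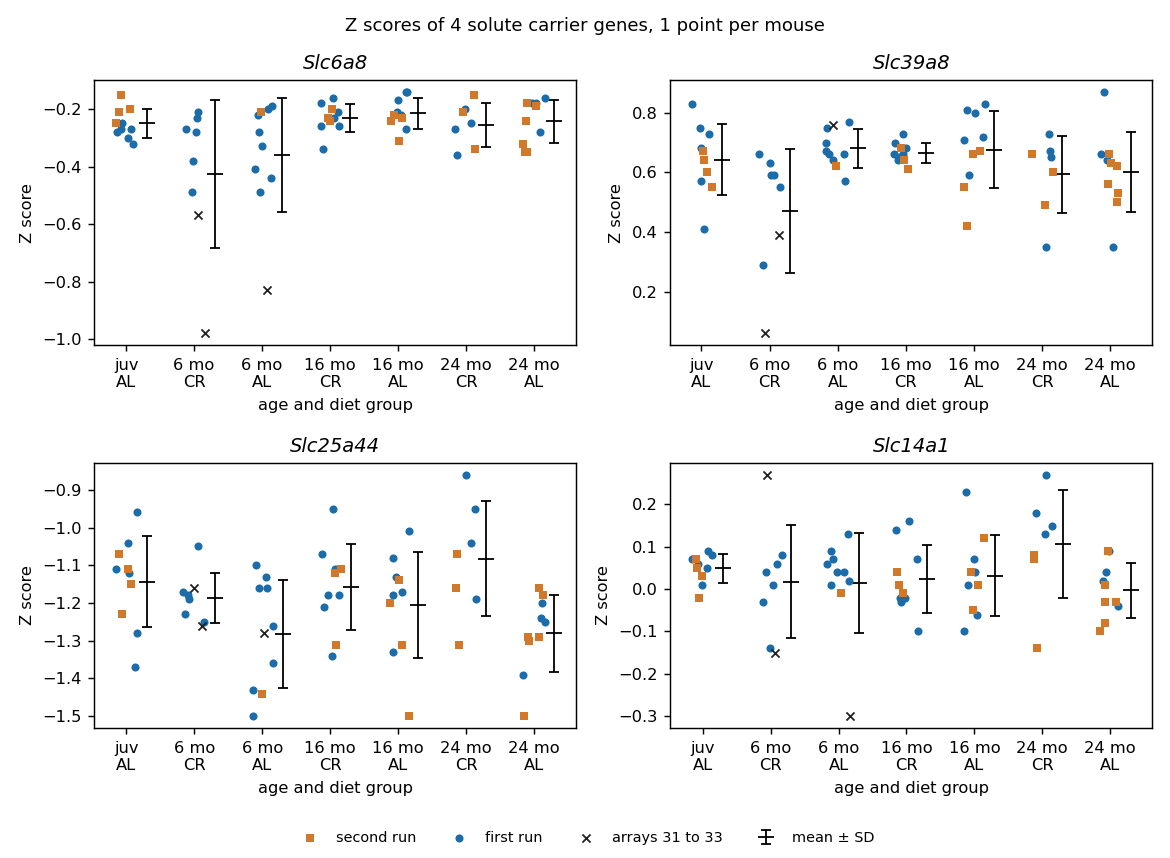
Z score (y axis) of Slc6a8, Slc39a8, Slc25a44 and Slc14a1 in each of 65 mice by age and diet group (x axis), with squares for the second run, circles for the first run, crosses for arrays 31 to 33, and bars for the mean and SD of the group. The lowest values of Slc6a8 (-0.98) and Slc39a8 (0.06) are crosses in CR mice of 6 months, whereas no cross is among the 7 CR mice of 24 months, of which 4 lie above every AL mouse of that age for Slc25a44.

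Among mitochondrial carriers, a diet difference at 24 months was nearly as large with the run in the fit. Slc25a44, a carrier of branched-chain amino acids across the mitochondrial inner membrane, had Z scores of -1.31, -1.07 and -0.86 (lowest, median and highest) in 7 CR mice of 24 months, against -1.5, -1.27 and -1.16 in 10 AL mice. Of the CR mice, 6 lay above the AL median and 4 above the highest AL mouse. The 3 males of these CR mice were 673 days old, against 704 to 743 days in the AL mice. The difference was 0.203 (SE 0.0636, unadjusted p = 0.00241, adjusted p = 0.686). The run-adjusted difference was 0.19 (SE 0.0628, adjusted p = 0.142), with the smallest adjusted p of any member in that fit. Within the first run it was 0.26 between 4 and 4 mice, and within the second run 0.107 between 3 and 6 mice. Leaving out 1 array gave 0.158 (without CR male replicate 1 of 24 months, the highest CR mouse) to 0.24 (without CR male replicate 3). At 6 months CR mice averaged -1.19 ± 0.0665 (n = 8) and AL mice -1.28 ± 0.144 (n = 10), and at 16 months CR mice averaged -1.16 ± 0.114 and AL mice -1.21 ± 0.141 (SD, n = 10 each). Over the 3 ages the difference was 0.116 (SE 0.0353, unadjusted p = 0.00174, adjusted p = 0.437), or 0.109 in the run-adjusted fit. The same gene had the smallest p among members between 6 months and the juvenile stage in AL mice, with 9 of 10 mice of 6 months below the juvenile median and a difference of -0.138 (SE 0.0574, adjusted p = 0.985), or -0.157 in the run-adjusted fit.

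Slc25a3, the carrier that brings phosphate into mitochondria for ATP synthesis, differed between ages and between runs. In AL mice it ran -0.26, 0.26 and 0.35 at 24 months, against -0.51, -0.29 and 0.32 at 6 months, and 10 of 10 mice of 24 months lay above the median of those of 6 months. The difference was 0.365 (SE 0.133, unadjusted p = 0.00798, adjusted p = 0.35). Across all mice, however, its lowest value in the second run was 0.21 and its highest in the first run was -0.05, so that the runs did not overlap. Run-adjusted, the difference was 0.048 (SE 0.0496), and within runs it was 0.0988 (4 against 8 mice, first run) and -0.015 (6 against 1, second run). Of the other mitochondrial carriers, the folate and FAD carrier Slc25a32 differed by 0.175 (SE 0.0807, adjusted p = 0.351) in the same contrast and by 0.0685 in the run-adjusted fit. Slc25a37, the mitochondrial iron importer mitoferrin 1, differed by 0.131 (SE 0.0531, adjusted p = 0.377) between 16 and 6 months in AL mice and by 0.0728 in the run-adjusted fit. The glutamate carrier Slc25a22, the S-adenosylmethionine carrier Slc25a26, Slc25a36 and Slc25a48 had no unadjusted p under 0.05 over the 65 arrays. Run-adjusted, Slc25a26 had one, at -0.123 (adjusted p = 0.69) for 16 against 6 months in AL mice.

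**Figure D3:**
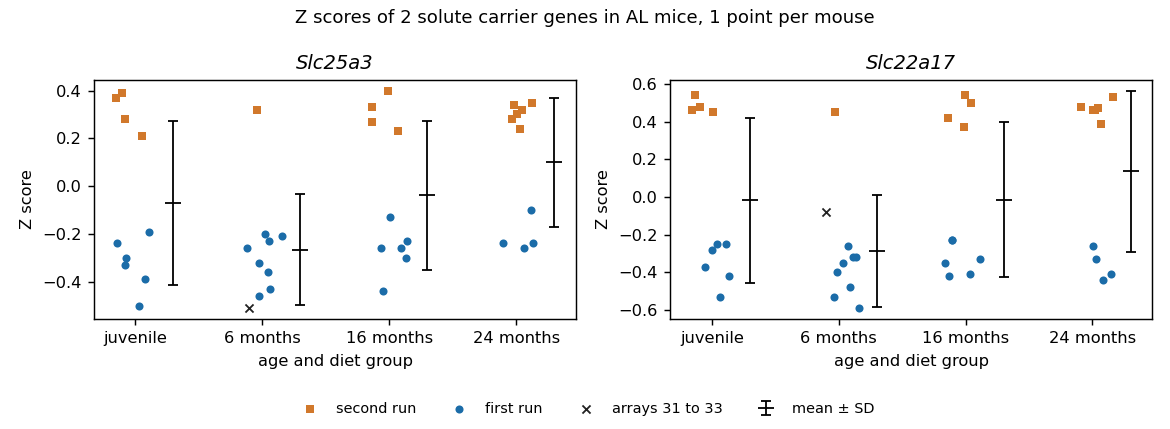
Z score (y axis) of Slc25a3 and Slc22a17 in each AL mouse by age group (x axis), with squares for the second run, circles for the first run, crosses for arrays 31 to 33, and bars for the mean and SD of the group. Squares and circles are apart at every age, and squares make up 6 of 10 mice at 24 months and 1 of 10 at 6 months.

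Among carriers of organic ions and metabolites, Slc22a17, a brain organic cation transporter-like protein also known as a receptor of lipocalin 2, behaved as Slc25a3 did. It ran -0.44, 0.425 and 0.53 in AL mice of 24 months, against -0.59, -0.335 and 0.45 in those of 6 months. The difference of 0.423 (SE 0.182, adjusted p = 0.35) was 0.042 (SE 0.0548) in the run-adjusted fit, 0.0463 within the first run and 0.015 within the second run (6 against 1 mice). Its 21 values of the second run, from 0.3 up to 0.66, did not overlap with the 41 of the first run, which reached -0.14 at most. Slc14a1, the urea transporter of red cells, kidney and astrocytes, ran -0.14, 0.13 and 0.27 in CR mice of 24 months, against -0.1, -0.01 and 0.09 in AL mice, and 4 of 7 CR mice exceeded the highest AL mouse. The difference was 0.118 (SE 0.048, adjusted p = 0.686), 0.109 in the run-adjusted fit (adjusted p = 0.163), 0.155 within the first run and 0.0267 within the second run. Leaving out 1 array gave 0.0943 (without CR male replicate 1 of 24 months, the highest CR mouse) to 0.15 (without CR female replicate 1). Against CR mice of 16 months, those of 24 months differed by 0.0906 (SE 0.048, adjusted p = 0.949), 0.154 within the first run and -0.01 within the second run. The change of Slc14a1 over 6 to 24 months differed between CR and AL mice by 0.0999 (SE 0.067, unadjusted p = 0.142, adjusted p = 0.997), by 0.164 without arrays 31 to 33 and by 0.16 in the run-adjusted fit (unadjusted p = 0.00665, adjusted p = 0.556).

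The carnitine transporter Slc22a5, which supplies the cofactor of fatty acid oxidation, ran -0.29, -0.03 and 0.16 in adult males, against -0.18, 0.01 and 0.21 in adult females. The difference was -0.0547 (SE 0.0253, unadjusted p = 0.035, adjusted p = 0.949), with -0.0558 within the first run and -0.0266 within the second run. The riboflavin transporter Slc52a3 differed by -0.141 (SE 0.068, adjusted p = 0.632) for CR against AL at 6 months, and by -0.0386 in the run-adjusted fit. The bile acid type carriers Slc10a4 and Slc10a6, the thiamine transporter Slc19a3, the ascorbate transporter Slc23a2 and the fatty acid transport protein Slc27a4 had no unadjusted p under 0.05 over the 65 arrays. In the run-adjusted fit Slc19a3 had one at -0.111 (SE 0.0376, adjusted p = 0.997) for 6 months against juveniles, and Slc10a6 and Slc23a2 had one in other comparisons.

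Among ion carriers, the sodium-coupled bicarbonate transporter Slc4a8, which is known from neurons, had Z scores of -1, -0.84 and -0.75 in CR mice of 24 months, against -1.38, -1.055 and -0.94 in CR mice of 16 months. All 7 mice of 24 months lay above the median of those of 16 months and 5 lay above the highest. The difference was 0.216 (SE 0.0916, unadjusted p = 0.0221, adjusted p = 0.949), and it was 0.207 in the run-adjusted fit (adjusted p = 0.272), 0.227 within the first run and 0.223 within the second run. Among the CR groups the low one was that of 16 months, since CR mice of 6 months had a median of -0.965. AL mice also had low values, down to -1.35 in juveniles, -1.27 at 6 months and -1.81 at 24 months. At 16 months each of the 10 CR mice also lay below the AL median of -0.925, with a difference of -0.139 (SE 0.0826, adjusted p = 1), or -0.131 in the run-adjusted fit. The potassium-chloride cotransporters Slc12a4 and Slc12a7, whose family sets chloride and cell volume, differed by 0.102 (SE 0.0443, adjusted p = 0.387) for 16 against 6 months in AL mice and by 0.0983 (SE 0.0432, adjusted p = 0.632) for CR against AL at 6 months. The run-adjusted values were 0.0554 and 0.029. The sodium-potassium-chloride cotransporter Slc12a2, the phosphate carrier Slc34a2, the anion exchangers Slc4a2 and Slc4a3 and the sodium-calcium exchanger Slc8a1 had no unadjusted p under 0.05 in either fit.

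With the features of a gene averaged, 0 of the 9 carriers of amino acids had an unadjusted p under 0.05 in any of the 13 comparisons over the 65 arrays. Their differences ran from -0.13 to 0.151. In the run-adjusted fit Slc1a4 had one between the sexes and Slc38a1 between 24 and 6 months in CR mice. Slc15a4, a lysosomal carrier of histidine and peptides, had the smallest p of all members between 24 and 16 months in AL mice. It ran -0.06, 0.195 and 0.63 at 24 months, against 0.15, 0.325 and 0.56 at 16 months, with a difference of -0.13 (SE 0.0682, unadjusted p = 0.0618) that was -0.0908 within the first run and -0.0992 within the second run. Slc7a7, a light chain that exchanges cationic for neutral amino acids, differed by 0.0969 (SE 0.0495, unadjusted p = 0.0552) for CR against AL over the 3 ages, and by 0.088 in the run-adjusted fit. The neutral amino acid exchangers Slc1a4 and Slc1a5, the sodium-coupled glutamine and alanine carriers Slc38a1, Slc38a2 and Slc38a3, the lysosomal arginine sensor Slc38a9 and Slc38a10 made up the rest. This class holds most of the genes with several features. The 2 features of Slc38a9 averaged 0.576 and -2.43, and their residuals over 65 arrays correlated at 0.106. Those of Slc38a10 correlated at 0.371, and the 3 features of Slc38a1 at -0.147, 0.381 and 0.0147. The 2 features of the choline gene Slc44a1 correlated at 0.123. Averaging can hide a difference of 1 feature. For CR against AL over the 3 ages, the features of Slc38a10 differed by 0.0758 (SE 0.0251) and -0.00489 (SE 0.0505). At 24 months these were 0.119 (SE 0.0453) and 0.082 (SE 0.0911). For 16 against 6 months in CR mice, the features of Slc44a1 differed by -0.117 (SE 0.0447) and 0.00133 (SE 0.0425). Features of 1 gene thus followed each other weakly, and a value stands for the clones printed on the filter.

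The sugar carriers included the insulin-sensitive glucose transporter Slc2a4, the fructose transporter Slc2a5, Slc37a3, Slc45a4, the SWEET type carrier Slc50a1 and, by its family number, Slc5a6, which takes up biotin and pantothenate rather than sugars. Slc5a6 ran -1.15, -0.98 and -0.81 in CR mice of 24 months, against -1.23, -1.165 and -0.96 in those of 6 months, and 7 of 7 mice lay above the median of 6 months. The difference was 0.142 (SE 0.0679, unadjusted p = 0.0412, adjusted p = 0.827), or 0.164 in the run-adjusted fit and 0.163 within the first run. Slc37a3 (-0.143) and Slc45a4 (0.115) had an unadjusted p under 0.05 for 16 against 6 months in CR mice, and Slc50a1 (0.105) for 16 against 6 months in AL mice. Run-adjusted values of these were -0.0153, 0.0398 and 0.0685. Slc2a4 differed by -0.0651 (SE 0.0329, unadjusted p = 0.0531) for CR against AL over the 3 ages, and by -0.0539 in the run-adjusted fit.

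Of the nucleoside and nucleotide sugar carriers, Slc29a1, the equilibrative transporter of adenosine, ran -0.7, -0.585 and 0.11 in AL mice of 6 months, against -0.84, -0.635 and -0.52 in juveniles. The difference of 0.128 (SE 0.0586, unadjusted p = 0.0332, adjusted p = 0.985) rested on the mouse at 0.11, array 33, and was 0.0585 without arrays 31 to 33. Slc35e1, an orphan of the nucleotide sugar family, had the widest difference of any member for CR against AL at 24 months, 0.262 (SE 0.167, unadjusted p = 0.123), and 0.16 in the run-adjusted fit. Its difference between the second and the first run was -0.558, and in the second run it ran -0.93, -0.6 and -0.45, against -0.45, -0.08 and 0.24 in the first run. The nucleoside cotransporter Slc28a3, the UDP-galactose transporter Slc35a2 and Slc35c2 had no unadjusted p under 0.05 in either fit.

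**Figure D4:**
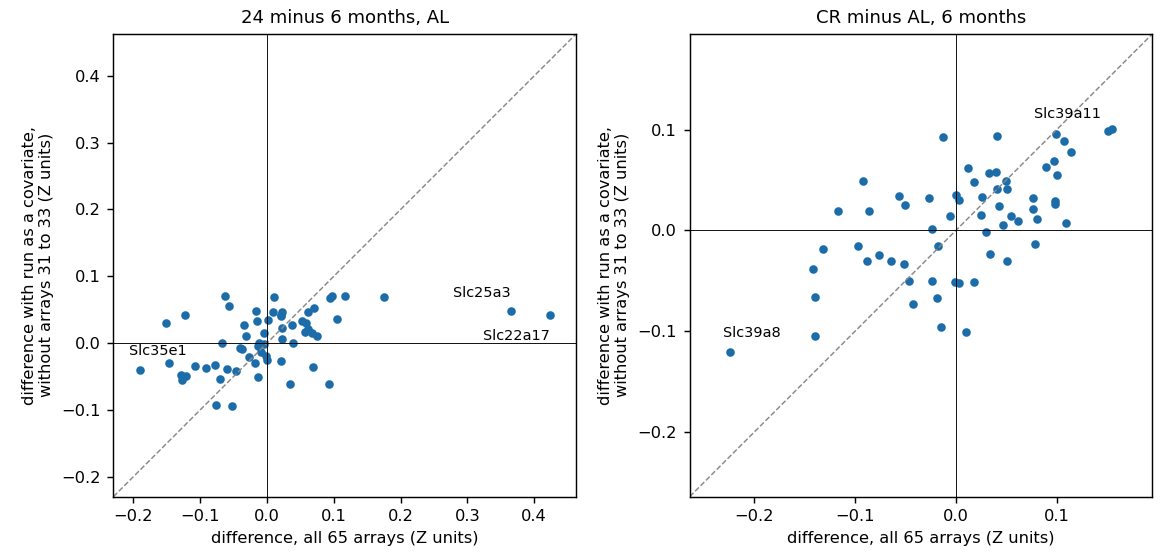
Difference of the 63 solute carrier genes in the run-adjusted fit (y axis, Z units) against the difference over all 65 arrays (x axis, Z units), for 24 minus 6 months in AL mice (left) and CR minus AL at 6 months (right), with a dashed line of equal values. Slc22a17 and Slc25a3 lie far below the dashed line at left (0.042 and 0.048 on the y axis), and Slc39a8 keeps the lowest value of the right panel (-0.12).

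The run-adjusted fit differs from that of the 65 arrays in 2 steps, the removal of arrays 31 to 33 and the addition of the run, and the steps acted unequally. For 24 against 6 months in AL mice, 6 members had an unadjusted p under 0.05 over the 65 arrays, 10 without arrays 31 to 33 and 0 once the run was added. For CR against AL at 6 months, 4 members had such a p over the 65 arrays, 1 without arrays 31 to 33 and 1 once the run was added, beside 322, 55 and 102 of all genes. For CR against AL at 24 months the counts were 2, 4 and 6 members, beside 294, 593 and 659 of all genes, and for 24 against 6 months in CR mice they were 2, 4 and 7 members, beside 237, 426 and 622 of all genes. Run-adjusted differences were smaller in size than those over the 65 arrays in 44 of 63 members for 24 against 6 months in AL mice and in 42 of 63 for CR against AL at 6 months. They were smaller in only 23 of 63 for 24 against 6 months and in 28 of 63 for 24 against 16 months in CR mice. Some markers of other cells were higher in older mice and some were lower. The 6 measured genes of the microglia and macrophage list averaged 0.0933, 0.159 and 0.269 (lowest, median and highest mouse) in AL mice of 24 months, against -0.466, 0.0183 and 0.0683 in those of 6 months, a group that includes array 33. All 6 differences were positive and 2 were called in limma, C1qa (0.286, adjusted p = 0.0229) and the lysosomal protease gene Ctsd (0.444, adjusted p = 0.0181). These 2 genes differed by 0.244 and 0.332 in the run-adjusted fit. The median difference of the 6 genes was 0.155, or 0.0874 run-adjusted. The 4 measured astrocyte genes had a median difference of 0.1455, or 0.0333 run-adjusted, with 0 called. Of the 2 measured neuron genes, Nefl differed by 0.0875 and Slc17a6 by -0.263, with a median of -0.08775, or -0.0197 run-adjusted. Median differences were 0.0573 (-0.0175 run-adjusted) for 4 blood genes and -0.0158 (-0.0393) for 4 genes of choroid plexus and meninges. The myelin list gene Gsn differed by 0.087 (-0.0183 run-adjusted) and the muscle gene Mylpf by -0.091 (-0.0431). The part of these cells in the differences of solute carriers was not tested.

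The proteins that solute carriers work with were measured in part. Of the sodium pump, which maintains the gradient that many of them use, Atp1b3, Fxyd4 and Fxyd6 were measured (3 of 14 listed genes), and 0 were called in any comparison. Fxyd6 differed by 0.084 (SE 0.0362, adjusted p = 0.35) for 24 against 6 months in AL mice and by 0.0284 in the run-adjusted fit. Of 18 listed partners and carbonic anhydrases, 6 were measured and 0 were called. Nptn, an ancillary subunit of lactate transporters, differed by 0.175 (SE 0.0635, adjusted p = 0.35) in the same contrast and by 0.018 in the run-adjusted fit. Among 7 genes of the ABC family, which holds ATP-driven transporters but also Abce1 and Abcf2 that act in translation, and 8 other membrane carriers, 0 were called. The cholesterol exporter Abca1 differed by 0.148 (SE 0.0535, adjusted p = 0.628) for 16 against 6 months in CR mice, and by 0.0225 with the run. Mfsd8, a lysosomal membrane carrier, differed by 0.145 (SE 0.0597, adjusted p = 0.686) for CR against AL at 24 months and by 0.146 with the run, and the organic anion carrier Slco2b1 by -0.134 (SE 0.053, adjusted p = 0.686) and -0.148.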

How the data were processed

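Expression was measured in the spinal cord of 65 C57BL/6 mice on the NIA mouse cDNA array (B filter). RNA was labelled with 33P according to the labels (the methods name 32P), and intensities were extracted and Z score transformed within each array by the authors. The deposited values are this score, given to 2 decimals, from -8.58 to 3.32. What log base and background correction preceded the transformation is not given in the sources used here, so differences are not folds. Precision is limited by the number of arrays, as such scores carry no depth. Symbols came from the platform annotation, and all 63 members matched the RefSeq gene table (GRCm38.p6). Features of a gene were averaged.

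The test was limma 3.58.1 in R 4.3.3 on these scores, with 14 group means (stage, diet and sex) in 1 fit, both sexes weighted equally, 51 residual degrees of freedom and Benjamini-Hochberg adjustment over 4209 genes. Where the sexes are unequal in number, a difference can therefore deviate from that of the printed group means. The fit was tested on simulated data. The alternatives were the run as a covariate, within-run values, the round of 14 arrays, array exclusion and weights, robust fit, quantile normalization, centring on 22 filter positions, a mean Z above 0, single features, leaving out each array, and the selection of the study (mean Z of both conditions above 0, z-ratio of at least 1.5 and an unadjusted p under 0.05 from a test of the 2 conditions alone, not from limma). The study's analysis of variance across all samples was not run.

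Members, classes and lists were chosen with earlier results of these data known. Named in each of the 13 comparisons were any called member and the 2 with the smallest unadjusted p. Further members are named to account for their class, and Slc35e1 was singled out after its values were seen.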

Additional observations from a re-analysis of the deposited data

Results flagged for a closer look

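In 14 of 98 combinations of 14 named genes with 7 age and diet groups, 1 mouse stood apart from the rest of its group (Dixon's criterion at 95%, by which chance marks about 1 in 20). Of these, 7 were arrays 31 to 33. AL male replicate 3 of 6 months (array 33) had a Slc14a1 score of -0.3 (nearest mouse -0.01), a Slc29a1 score of 0.11 (nearest -0.48), a Slc40a1 score of -0.33 (nearest 0.2) and a Slc6a8 score of -0.83 (nearest -0.49). CR male replicate 2 of 6 months (array 31) had a Slc6a8 score of -0.98 (nearest -0.57) and a Slc15a4 score of -0.29 (nearest 0.16). CR female replicate 3 of 6 months (array 32) had a Slc39a1 score of -0.22 (nearest -0.63).

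AL female replicate 3 of 6 months, the only mouse of its group in the second run, stood apart with 0.45 for Slc22a17 (nearest -0.08) and 0.32 for Slc25a3 (nearest -0.2). The other mice were a juvenile (AL male replicate 4) with -0.23 for Slc22a5 (nearest -0.07), CR female replicate 5 of 16 months with -1.19 for Slc39a1 (nearest -0.88) and CR female replicate 2 of 16 months with 0.56 for Slc40a1 (nearest 0.39). AL female replicate 1 of 24 months had -1.81 for Slc4a8 (nearest -1.08), and AL male replicate 4 of 16 months had -0.81 for Slc5a6 (nearest -0.97).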

How the results depend on the processing

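The count of 0 called members held in each comparison without arrays 31 to 33, in the run-adjusted fit, with quantile normalization, centring, the robust fit, a mean Z above 0, single features and without the array of conflicting label. For 24 against 6 months in AL mice, the round of 14 arrays as a covariate gave 2 called members (Slc22a17 and Slc25a3, adjusted p = 0.0226 each, beside 1.85% of all genes) and array weights gave 9 (beside 20.7%), in a weighting that stopped before convergence. These 2 genes differed by 0.042 and 0.048 in the run-adjusted fit. The selection of the study gave 1 member (Slc39a8) for 16 against 6 months in CR mice, 1 (Slc39a8) for CR against AL at 6 months and 1 (Slc40a1) for CR against AL at 16 months, beside 0.665%, 0.523% and 0.879% of all genes, and was not run for the difference between diets of the change with age. Leaving out 1 array gave 0 to 1 called members for 16 against 6 months in CR mice and 0 in the other 12 comparisons. The 1 was Slc6a8 without CR male replicate 1 of 6 months (0.304, adjusted p = 0.00633, beside 0.285% of all genes), and without CR male replicate 2 of 6 months its difference was 0.126. Within the second run, 3 named differences had the opposite sign, namely Slc6a8 at 16 against 6 months in AL mice (-0.04), Slc25a3 at 24 against 6 months in AL mice (-0.015) and Slc14a1 at 24 against 16 months in CR mice (-0.01), and the cause was not tested. No paired analysis was possible because the replicate numbers follow the order of the arrays and the labels tie no mice together. The round of 14 arrays is a block by array number, and the labels do not give the processing batches.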
